A study of Mus musculus with 9 samples.

Results

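Mediator is the large complex that carries signals from DNA-bound transcription factors to RNA polymerase II. Its 33 mouse subunit genes were followed here in a Cdk8 knockout experiment, chosen by gene symbol from the 28059 Entrez gene IDs of the deposited table, and all 33 were found in it. They are 7 genes of the kinase module, 9 of the head, 9 of the middle, the scaffold gene Med14 and 7 of the tail. YAMC cells, grown out of the colon of young adult mice although the labels place them in the small intestine, carry a temperature-sensitive large T antigen that is active at low growth temperature. The groups were Cdk8 knockout clone 1 and Cdk8 knockout clone 19, both labelled Cdk8 -/- and made by CRISPR, and the parental YAMC cells, labelled wildtype, with 3 libraries each. All 3 groups were grown at 32 °C and harvested in logarithmic growth, so all share the immortalized background. Each knockout line is 1 clone and no clone with intact Cdk8 was analysed here, so the knockout cannot be told apart from the cloning step.

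Mediator is built of a head, a middle and a tail joined along the scaffold subunit MED14. Activators bind mostly the tail and parts of the middle, while the head and middle touch RNA polymerase II and the general transcription factors. A separate kinase module, made of CDK8 or its paralog CDK19, cyclin C, MED12 or MED12L, and MED13 or MED13L, docks on this core through MED13 and competes with the polymerase for it. CDK8 has been studied in the intestine mainly for its part in the output of Wnt signalling through beta-catenin.

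Levels are in RPKM, the reads of a gene per kilobase of its model and per megaread of the library, so they can be compared between genes as well as between libraries. The depth used as the divisor was 23.2 to 32.7 megareads in clone 1, 24.8 to 33.4 megareads in clone 19 and 28.2 to 44.2 megareads in parental cells. Reads on genes made up 85.7 to 86.8% of that depth in clone 1, 84.4 to 85.3% in clone 19 and 81.2 to 81.9% in parental cells. The part of this difference in the values that follow was not tested, but with RPKM scaled by the reads on genes, 8 Mediator genes were called higher and 14 lower in clone 1, and 7 higher and 11 lower in clone 19. Over all tested genes that scaling gave 30.7% higher and 40.5% lower in clone 1, and 29.9% and 38.9% in clone 19. Of 15 intestinal epithelial markers only Cdh1, Krt8, Krt18 and Krt19 reached 1 RPKM in 3 libraries, and Cdx2 and Alpi were at 0 in all 9. All 7 fibroblast and all 6 mesothelial markers did, and the mesothelial ones summed to 1706 to 1756 RPKM in clone 1, 1764 to 1770 RPKM in clone 19 and 966 to 968 RPKM in parental cells. Msln among them went the other way, at 80.5 to 84.7 RPKM in clone 1 and 97.7 to 104 RPKM in clone 19. In parental cells Msln had 108 to 114 RPKM. The 7 fibroblast markers summed to 1567 to 1607 RPKM in clone 1, 1307 to 1378 RPKM in clone 19 and 1777 to 1838 RPKM in parental cells. Within that list Col3a1 went the other way in both clones, at 193 to 195 RPKM in clone 1 and 179 to 184 RPKM in clone 19, against 149 to 155 RPKM in parental cells. Col1a2 did so in clone 1 alone, at 89.1 to 92.2 RPKM. It had 49.2 to 58.3 RPKM in clone 19 and 61.9 to 65.1 RPKM in parental cells. The epithelial markers summed to 986 to 1036 RPKM in clone 1, 969 to 976 RPKM in clone 19 and 614 to 632 RPKM in parental cells. Nearly all of that sum was the keratins Krt8, Krt18 and Krt19, so it does not stand for the other markers of the list. Cdh1 had 0.42 to 0.64 RPKM in clone 1, 1.13 to 1.38 RPKM in clone 19 and 0.46 to 0.63 RPKM in parental cells. The part of these marker shifts in the Mediator values was not tested. In a bulk library, fewer cells that express a gene and less of its RNA per cell cannot be told apart.

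Mediator genes moved by small amounts and in both directions. In clone 1 against parental cells, 12 of the 32 Mediator genes tested were called higher and 10 lower, at an adjusted p under 0.05 in limma. That is 68.75% called, against 72.4% of all 12568 tested genes, of which 39.8% were called higher and 32.6% lower. In clone 19 against parental cells, 9 were called higher and 9 lower, which is 56.25% against 69.0% of all tested genes (36.7% higher and 32.3% lower). Both comparisons share the parental libraries. The median log2 fold change of the Mediator genes was 0.04 in clone 1 and 0.06 in clone 19, against 0.03 and 0.02 over all tested genes. Only 5 Mediator genes in clone 1 and 4 in clone 19 were called with a ratio of at least 5 to 4 between the groups, in either direction, where 34.3% and 30.6% of all tested genes were. The higher share of the calls depended on the scaling, and so did that over all tested genes. With median-ratio scaling 8 were called higher and 14 lower in clone 1, and 9 higher and 10 lower in clone 19. Over all tested genes that scaling gave 35.7% higher and 35.8% lower in clone 1, and 34.3% and 34.8% in clone 19. All libraries of the clone lay above all parental libraries for 10 genes and below them for 12 in clone 1, where 41.4% and 33.7% of all tested genes did so. The counts in clone 19 were 9 above and 11 below, where 38.7% and 34.8% of all tested genes did so.

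**Figure D1:**
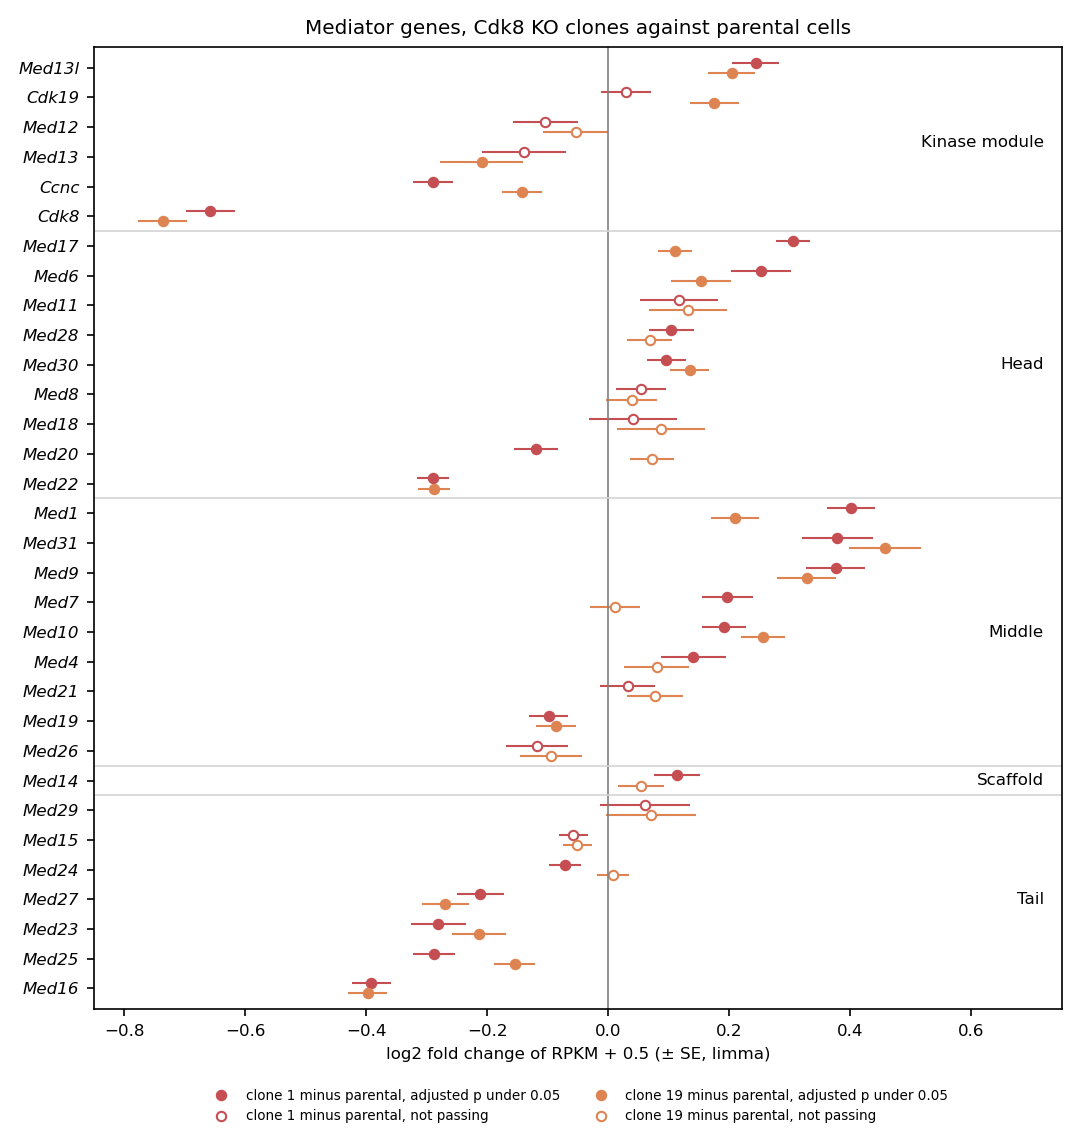
Log2 fold change of RPKM + 0.5 (x axis, point ± SE from limma) of the 32 tested Mediator genes, grouped by module, for clone 1 minus parental (red) and clone 19 minus parental (orange). Filled points had an adjusted p under 0.05. Cdk8 lies farthest to the left, at -0.66 and -0.74, no tail gene has a filled point right of 0, and no filled point lies beyond 0.46 on the right.

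In the kinase module, Cdk8 and Ccnc fell in both clones, Med13l rose in both, and Cdk19 was called higher in clone 19 alone. In clone 1, 1 of the 6 genes tested rose, 2 fell and 3 did not pass, while in clone 19 the counts were 2, 3 and 1, or 3 and 5 of 6 called, beside 72.4% and 69.0% of all tested genes. Either scaling gave 1 higher and 4 lower in clone 1. Cdk8, the kinase and the targeted gene (Entrez 264064), had 10.3, 11.1 and 11.6 RPKM in clone 1 libraries and 10.5, 10.3 and 10.3 RPKM in clone 19 libraries, against 17.5, 17.7 and 17.5 RPKM in parental cells. All 6 clone libraries lay below all 3 parental ones, but the RNA was far from absent. The mean fell by 37.6% in clone 1 and fell by 41.1% in clone 19 (log2 fold change -0.66 ± 0.04 and -0.74 ± 0.04, SE, adjusted p = 7.6e-08 and 3.5e-08, limma). Between 617 and 2005 reads per library lay behind these values. A knockout edit can remove a protein while its RNA stays, so the gene's level goes with the labels but does not measure CDK8 protein. Cdk8 in clone 19 minus clone 1 was -0.08 (adjusted p = 0.14, limma) and was called lower only without clone 1 replicate 1 (-0.12, adjusted p = 0.015).

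Cdk19 encodes the paralog that can replace CDK8 in the module. It had 8.54, 8.18 and 8.42 RPKM in clone 1 libraries and 9.20, 9.01 and 9.78 RPKM in clone 19 libraries, against 8.45, 8.22 and 7.93 RPKM in parental cells. Clone 1 overlapped parental cells (0.03, adjusted p = 0.53, limma), whereas all 3 clone 19 libraries lay above both other groups (0.18 ± 0.04, SE, adjusted p = 0.0027, limma). The difference between the clones itself passed (clone 19 minus clone 1 0.15 ± 0.04, SE, adjusted p = 0.015, limma), but not without clone 19 replicate 3 (0.11, adjusted p = 0.057). The summed level of Cdk8 and Cdk19 was 19.4 ± 0.596 RPKM in clone 1 and 19.7 ± 0.379 RPKM in clone 19, against 25.8 ± 0.312 RPKM in parental cells (SD, n = 3 each). The sum fell by 24.9% in clone 1 and fell by 23.7% in clone 19, with no overlap of the clones and parental cells. Cdk8 made up 56.7 ± 1.81% of it in clone 1 and 52.6 ± 1.24% in clone 19, against 68.2 ± 0.666% in parental cells. An exact two-sided permutation test of 3 libraries against 3 cannot give a p below 0.10, so these sums and shares are given without a test.

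Ccnc encodes cyclin C, the partner that activates CDK8 and CDK19. Its level was 7.52, 7.52 and 7.34 RPKM in clone 1 libraries and 8.34, 8.12 and 8.48 RPKM in clone 19 libraries, against 9.30, 9.26 and 9.12 RPKM in parental cells. The 3 groups did not overlap, with clone 19 between clone 1 and parental cells. It fell by 0.29 on the log2 scale in clone 1 (SE 0.03, adjusted p = 1.3e-05, limma) and by 0.14 in clone 19 (SE 0.03, adjusted p = 0.0027, limma), and the clones differed (clone 19 minus clone 1 0.15, adjusted p = 0.0048, limma). Cdk8 stood to Ccnc as 1.47 ± 0.106 in clone 1 and 1.246 ± 0.0322 in clone 19, against 1.91 ± 0.0178 in parental cells (ratio of RPKM, SD, n = 3 each). With both kinases counted, the ratio to Ccnc was 2.595 ± 0.115 in clone 1 and 2.37 ± 0.00695 in clone 19, against 2.79 ± 0.00701 in parental cells, and no 2 groups overlapped.

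Med12 and Med13, which activate the kinase and link the module to the core, had smaller differences from parental cells than Cdk8 had. Med12 had 7.30, 6.10 and 6.86 RPKM in clone 1 libraries and 6.98, 6.98 and 7.01 RPKM in clone 19 libraries, against 7.29, 7.34 and 7.19 RPKM in parental cells. It passed in neither clone (-0.10 and -0.05, adjusted p = 0.11 and 0.39, limma), although all clone 19 libraries lay below the parental ones. It was called lower in clone 1 with either scaling (adjusted p = 0.043 and 0.010), by voom (adjusted p = 0.017) and without clone 1 replicate 1 (-0.16, adjusted p = 0.016, limma). Its paralog Med12l was almost unread, with 1, 0 and 1 reads in clone 1, 3, 2 and 2 reads in clone 19 and 0, 1 and 0 reads in parental cells. These are at or under a floor of 3 reads per library, so no fold is given. Med12l did not reach 1 RPKM in 3 libraries and was left out of the main fit. It entered only the fit with no filter.

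Med13 had 17.6, 14.01 and 15.4 RPKM in clone 1 libraries and 14.7, 14.6 and 15.3 RPKM in clone 19 libraries, against 18.2, 17.1 and 16.4 RPKM in parental cells. Clone 1 overlapped parental cells (-0.14, adjusted p = 0.090, limma) and clone 19 lay below them (-0.21 ± 0.07, SE, adjusted p = 0.019, limma). Clone 19 lost its call without clone 19 replicate 1 (-0.20, adjusted p = 0.0503), clone 19 replicate 2 (-0.20, adjusted p = 0.0553) or parental replicate 1 (-0.17, adjusted p = 0.0739), and clone 1 was called lower without its replicate 1 (-0.22, adjusted p = 0.0030), with either scaling (adjusted p = 0.043 and 0.013), with array weights (adjusted p = 0.036) and by voom (adjusted p = 0.00998). Med13l had 10.7, 10.04 and 10.3 RPKM in clone 1 libraries and 9.90, 9.93 and 10.3 RPKM in clone 19 libraries, against 8.87, 8.82 and 8.29 RPKM in parental cells. All clone libraries lay above the parental ones (0.24 ± 0.04 and 0.20 ± 0.04, SE, adjusted p = 1.75e-04 and 7.2e-04, limma). The summed level of the Med13 pair overlapped between groups, at 26.0 ± 2.15 RPKM in clone 1 and 24.9 ± 0.626 RPKM in clone 19, against 25.9 ± 1.203 RPKM in parental cells (SD, n = 3 each). Its makeup overlapped between the clones, but not between either clone and parental cells. Med13 was 60.1 ± 2.01% of the sum in clone 1 and 59.6 ± 0.155% in clone 19, against 66.6 ± 0.625% in parental cells.

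**Figure D2:**
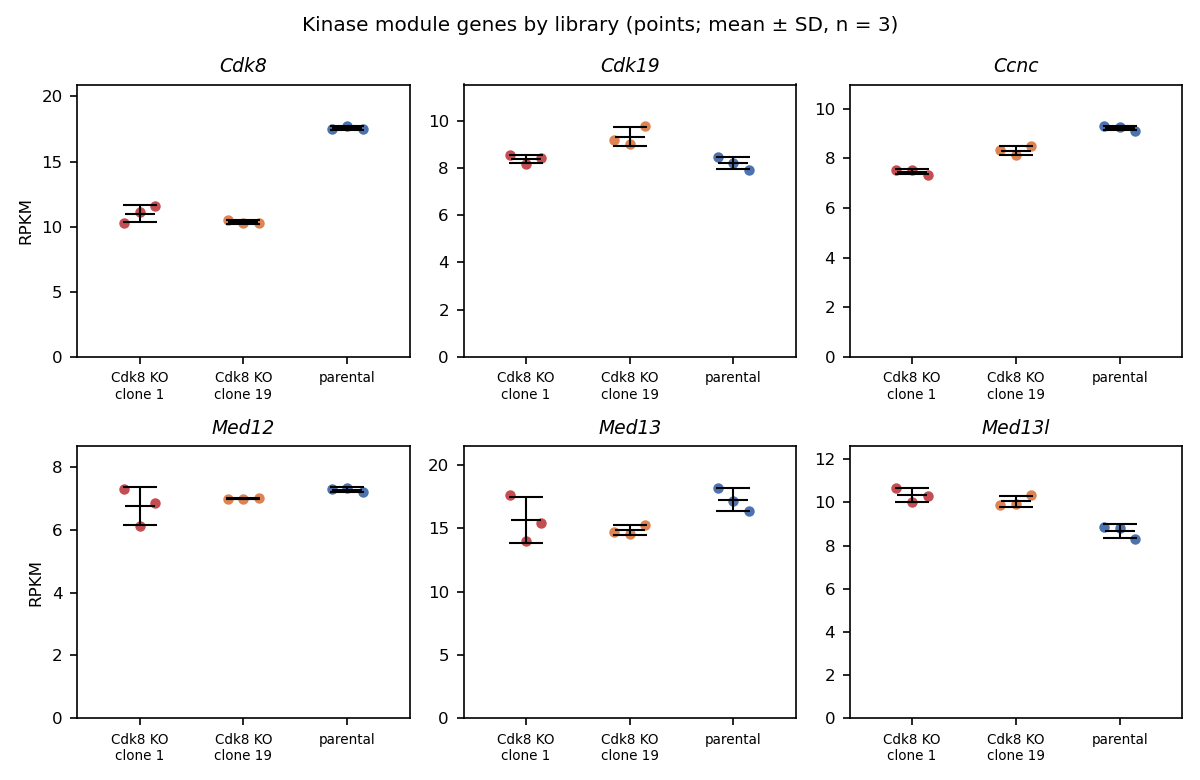
RPKM (y axis, from 0) of 6 kinase module genes in the 3 libraries of clone 1, clone 19 and parental cells. Points are libraries and bars are the mean ± SD (n = 3). Cdk8 and Ccnc are lower in both clones, Med13l is higher in both, and Med12 and Med13 in clone 1 overlap parental cells.

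**Figure D3:**
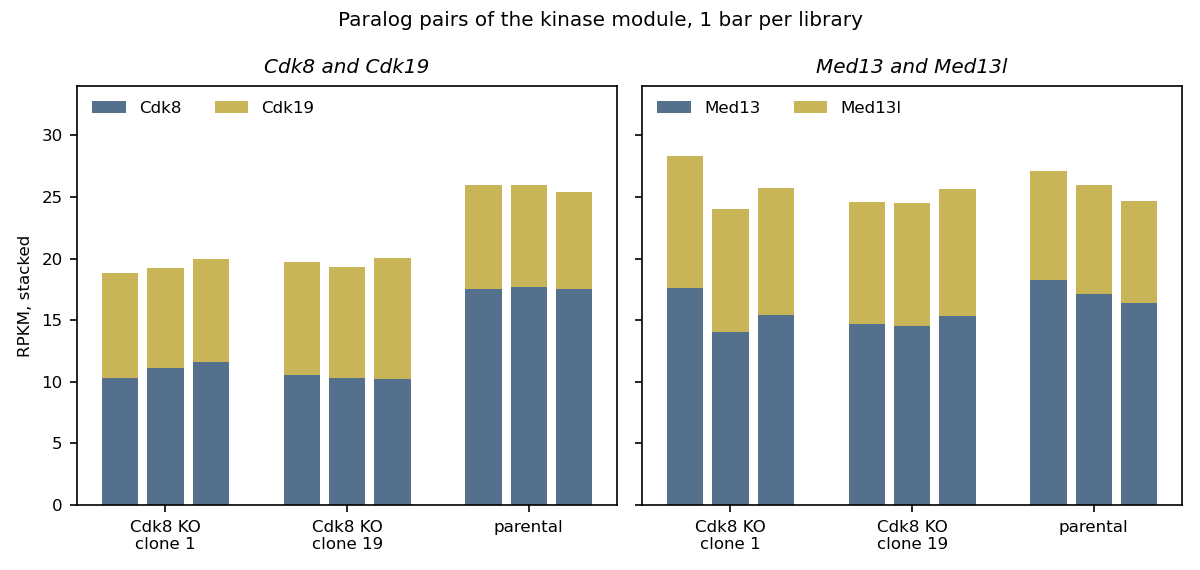
Stacked RPKM (y axis) of Cdk8 with Cdk19 and of Med13 with Med13l, 1 bar per library, in clone 1, clone 19 and parental cells. The kinase pair sums to 18.8 to 20.04 RPKM in the clones and 25.4 to 26.0 RPKM in parental cells, while the sums of the Med13 pair overlap.

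In the head, which binds RNA polymerase II, Med17 and Med6 rose in both clones and Med22 fell in both. In clone 1, 4 of its 9 genes rose, 2 fell and 3 did not pass, while in clone 19 3 rose, 1 fell and 5 did not pass. Over all tested genes, 39.8% rose and 32.6% fell in clone 1, and 36.7% and 32.3% in clone 19. Median-ratio scaling gave 2 higher and 2 lower in clone 1, and scaling by the reads on genes gave 2 higher and 2 lower in clone 1 and 1 higher and 1 lower in clone 19. Med17, the architectural subunit of the head, had 18.4, 18.7 and 18.5 RPKM in clone 1 libraries and 16.3, 16.0 and 16.1 RPKM in clone 19 libraries, against 15.1, 15.2 and 14.4 RPKM in parental cells. The 3 groups did not overlap, with clone 1 highest. Its log2 fold change was 0.31 ± 0.03 in clone 1 and 0.11 ± 0.03 in clone 19 (SE, adjusted p = 2.2e-06 and 0.00465, limma). The clone 19 call ended with scaling by the reads on genes (0.06, adjusted p = 0.095).

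Med22 was the second most abundant Mediator RNA of parental cells. It had 34.7, 33.97 and 33.7 RPKM in clone 1 libraries and 33.3, 34.2 and 35.0 RPKM in clone 19 libraries, against 41.4, 41.2 and 42.9 RPKM in parental cells. Every clone library lay below every parental one (-0.29 ± 0.03 in each clone, SE, adjusted p = 2.1e-06 and 2.4e-06, limma). Med6 averaged 28.5 ± 1.47 RPKM in clone 1 and 26.6 ± 0.583 RPKM in clone 19, against 23.9 ± 1.68 RPKM in parental cells (SD, n = 3 each). It rose by 0.25 and 0.15 (adjusted p = 8.6e-04 and 0.018, limma), and the clone 19 call ended without clone 19 replicate 1 (0.14, adjusted p = 0.060) or parental replicate 2 (0.09, adjusted p = 0.066), and with scaling by the reads on genes (0.10, adjusted p = 0.12). Med30 averaged 39.0 RPKM in clone 1 and 40.1 RPKM in clone 19, against 36.5 RPKM in parental cells (0.10 and 0.13, adjusted p = 0.019 and 0.0031, limma). Its clone 1 call ended without clone 1 replicate 1 (0.07, adjusted p = 0.073) or parental replicate 3 (0.07, adjusted p = 0.084), and with either scaling (adjusted p = 0.098 and 0.567).

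The other head genes had calls in clone 1 at most, apart from the settings named. Med28 averaged 15.5 RPKM in clone 1 and 15.1 RPKM in clone 19, against 14.4 RPKM in parental cells. It was called higher in clone 1 (0.10, adjusted p = 0.025, limma) although the ranges of clone 1 and parental cells overlapped, and the call ended without any 1 of clone 1 replicates 2 and 3 and parental replicates 1 and 3 (adjusted p = 0.094, 0.077, 0.097 and 0.055), and with either scaling (adjusted p = 0.105 and 0.522). In clone 19 it was called higher with neighbouring genes subtracted (0.11, adjusted p = 0.026). Med20 was called lower in clone 1 alone (-0.12, adjusted p = 0.013, limma), and its call ended without parental replicate 2 (-0.09, adjusted p = 0.057). Without that library it was called higher in clone 19 (0.10, adjusted p = 0.049), and with neighbouring genes subtracted both clones were called higher for it (0.11 and 0.14, with adjusted p = 0.015 and 0.0040). Its values are given with the comparison of the clones. Med8 averaged 23.2, 22.9 and 22.3 RPKM in clone 1, clone 19 and parental cells, and did not pass in either clone. Med11 averaged 16.5, 16.6 and 15.1 RPKM in these groups and did not pass (0.12 and 0.13, adjusted p = 0.12 and 0.089, limma). It was called higher in clone 1 without clone 1 replicate 3 (0.17, adjusted p = 0.034), and in clone 19 without clone 1 replicate 2 (adjusted p = 0.027) or with only the compared groups fitted (adjusted p = 0.029). Med18, the second lowest of the tested Mediator genes in parental cells, averaged 3.87, 4.01 and 3.73 RPKM and did not pass either.

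The largest rises among Mediator genes were in the middle module, Med1 in clone 1 and Med31 in clone 19. In clone 1, 6 of its 9 genes rose, 1 fell and 2 did not pass, while in clone 19 4 rose, 1 fell and 4 did not pass, beside 39.8% and 36.7% of all tested genes called higher. Both scalings left the counts of higher genes at 5 in clone 1 and 4 in clone 19. Med1 encodes the subunit through which nuclear receptors contact Mediator. It had 14.4, 13.2 and 13.8 RPKM in clone 1 libraries and 11.7, 12.4 and 12.0 RPKM in clone 19 libraries, against 10.5, 10.3 and 10.1 RPKM in parental cells. The 3 groups did not overlap, and the rise was 0.40 ± 0.04 in clone 1 and 0.21 ± 0.04 in clone 19 (SE, adjusted p = 3.5e-06 and 6.2e-04, limma). Med31, a small and highly conserved subunit, had 14.3, 14.1 and 15.2 RPKM in clone 1 libraries and 15.4, 16.0 and 14.7 RPKM in clone 19 libraries, against 11.3, 9.97 and 12.0 RPKM in parental cells. All clone libraries were above the parental ones, by 0.38 ± 0.06 and 0.46 ± 0.06 (SE, adjusted p = 1.5e-04 and 4.0e-05, limma). In the GENCODE M21 annotation, 26.3% of the 1730 exon bases of Med31 lie opposite exons of 4930563E22Rik, and whether the counting used strand is not given in the sources used here. The gene model behind these RPKM has 1161 bases, so its own overlap can differ.

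Med9 and Med10 rose in both clones as well. Med9 had 16.1, 15.8 and 15.1 RPKM in clone 1 libraries and 14.1, 15.9 and 15.5 RPKM in clone 19 libraries, against 11.5, 11.8 and 12.6 RPKM in parental cells. No clone library reached down to the parental ones (0.38 ± 0.05 and 0.33 ± 0.05, SE, adjusted p = 3.8e-05 and 1.2e-04, limma). Med10 was the most abundant Mediator RNA in all 3 groups, with 50.4, 52.7 and 51.1 RPKM in clone 1 libraries and 54.4, 53.3 and 53.7 RPKM in clone 19 libraries, against 42.2, 45.6 and 47.3 RPKM in parental cells. The 3 groups did not overlap, and clone 19 was highest (0.19 ± 0.04 and 0.26 ± 0.04, SE, adjusted p = 6.7e-04 and 8.3e-05, limma). Of its 4491 exon bases in GENCODE M21, 92.8% lie opposite the noncoding gene Gm26819, and reads on shared bases cannot be told apart without strand. The gene model behind these RPKM has 862 bases, and the share of it that overlaps is not known.

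The remaining middle genes changed by at most 0.20 on the log2 scale. Med7, whose subunit forms a hinge with MED21 in yeast, rose in clone 1 (0.20, adjusted p = 0.0014, limma) and not in clone 19 (0.01, adjusted p = 0.82, limma), except with neighbouring genes subtracted (0.13, adjusted p = 0.025). Med4 averaged 17.7 RPKM in clone 1 and 16.98 RPKM in clone 19, against 16.0 RPKM in parental cells. It was called higher in clone 1 (0.14, adjusted p = 0.033, limma). The call was lost with either scaling, with no filter, with no trend and without clone 1 replicate 3, parental replicate 1 or parental replicate 2 (adjusted p = 0.13, 0.064 and 0.138). Med19 averaged 29.1 RPKM in clone 1 and 29.4 RPKM in clone 19, against 31.2 RPKM in parental cells, and was called lower in both (-0.10 and -0.09, adjusted p = 0.019 and 0.036, limma). Its clone 1 call ended without clone 1 replicate 3 (-0.06, adjusted p = 0.074) or parental replicate 3 (-0.09, adjusted p = 0.057). The clone 19 call ended without clone 19 replicate 2 or 3 or any 1 parental library (adjusted p = 0.0637 to 0.108), and with no filter or no trend (adjusted p = 0.0568 and 0.0588). Med21 averaged 40.7, 42.1 and 39.8 RPKM in clone 1, clone 19 and parental cells and did not pass, except in clone 19 without clone 19 replicate 3 (0.13, adjusted p = 0.021). Med26, the docking site of the super elongation complex, averaged 6.11, 6.21 and 6.66 RPKM in these groups. All libraries of both clones lay below the parental ones, but it did not pass (-0.12 and -0.09, adjusted p = 0.060 and 0.12, limma). It was called lower in clone 1 with either scaling (adjusted p = 0.023 and 0.0067), by voom (adjusted p = 0.037) and without clone 1 replicate 3 (-0.17, adjusted p = 0.014), and in clone 19 with scaling by the reads on genes (-0.15, adjusted p = 0.025).

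Med14, the scaffold that joins the modules, averaged 14.1 ± 0.442 RPKM in clone 1 and 13.6 ± 0.294 RPKM in clone 19, against 13.04 ± 0.565 RPKM in parental cells (SD, n = 3 each). It was called higher in clone 1 (0.11 ± 0.04, SE, adjusted p = 0.019, limma) and not in clone 19 (0.05, adjusted p = 0.22). The clone 1 call ended with either scaling (adjusted p = 0.081 and 0.348) and without clone 1 replicate 1, parental replicate 2 or parental replicate 3 (adjusted p = 0.0689, 0.0663 and 0.076).

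In the tail as listed here, where many activators bind, no gene was called higher in either clone. In clone 1, 5 of its 7 genes fell and 2 did not pass, and in clone 19 4 fell and 3 did not pass, beside 32.6% and 32.3% of all tested genes called lower. Either scaling gave 6 lower in clone 1 and 5 in clone 19, and none higher. The counts hold for this listing of the tail. Med28 and Med30, listed here in the head, were called higher in clone 1 in the main fit, and Med30 also in clone 19. Med16, which binds MED23 and MED24 in the tail, had 10.5, 10.7 and 10.3 RPKM in clone 1 libraries and 10.6, 10.1 and 10.6 RPKM in clone 19 libraries, against 14.01, 14.1 and 13.6 RPKM in parental cells. All clone libraries lay well below the parental ones, and the mean fell by 24.6% in clone 1 and fell by 24.9% in clone 19 (-0.39 ± 0.03 and -0.40 ± 0.03, SE, adjusted p = 9.1e-07 and 9.1e-07, limma). Med25, known as a contact of ETS factors, had 20.2, 22.1 and 21.3 RPKM in clone 1 libraries and 23.0, 23.8 and 23.1 RPKM in clone 19 libraries, against 25.6, 26.7 and 25.8 RPKM in parental cells. The 3 groups did not overlap, with clone 19 in the middle (-0.29 ± 0.03 and -0.15 ± 0.03, SE, adjusted p = 1.7e-05 and 0.0020, limma).

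Med23, a contact of the ERK-responsive factor ELK1, had 8.68, 8.004 and 8.35 RPKM in clone 1 libraries and 8.55, 8.53 and 9.22 RPKM in clone 19 libraries, against 10.5, 10.5 and 9.81 RPKM in parental cells. The clones overlapped each other and not the parental cells (-0.28 ± 0.05 and -0.21 ± 0.05, SE, adjusted p = 1.9e-04 and 0.0014, limma). Med27 had 17.3, 16.5 and 15.8 RPKM in clone 1 libraries and 15.8, 16.1 and 15.8 RPKM in clone 19 libraries, against 18.6, 20.1 and 18.9 RPKM in parental cells. Again every clone library was below every parental one (-0.21 ± 0.04 and -0.27 ± 0.04, SE, adjusted p = 5.2e-04 and 9.6e-05, limma). Med24, a partner of MED16 and MED23, was called lower in clone 1, where its mean fell by 4.94% (-0.07, adjusted p = 0.030, limma). That call ended without clone 1 replicate 2 or 3 or parental replicate 1 or 3 (adjusted p = 0.0657, 0.0877, 0.0968 and 0.0599).

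Med15, through which SREBP activates lipid genes, averaged 28.8 RPKM in clone 1 and 28.9 RPKM in clone 19, against 30.0 RPKM in parental cells. It did not pass (-0.06 and -0.05, adjusted p = 0.0504 and 0.0816, limma), whereas either scaling made it a called fall in both clones. In clone 1 it also passed with no filter, with array weights, with only the compared groups fitted, by voom (adjusted p = 0.0409 to 0.0483) and without clone 19 replicate 1 or 2 (adjusted p = 0.043 and 0.0348), and in clone 19 without clone 19 replicate 2 (-0.07, adjusted p = 0.0258). Med29 averaged 3.59, 3.60 and 3.41 RPKM in clone 1, clone 19 and parental cells and did not pass. With 195 to 341 reads per library, it and Med18, with 167 to 282, were the least read of the tested Mediator genes.

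**Figure D4:**
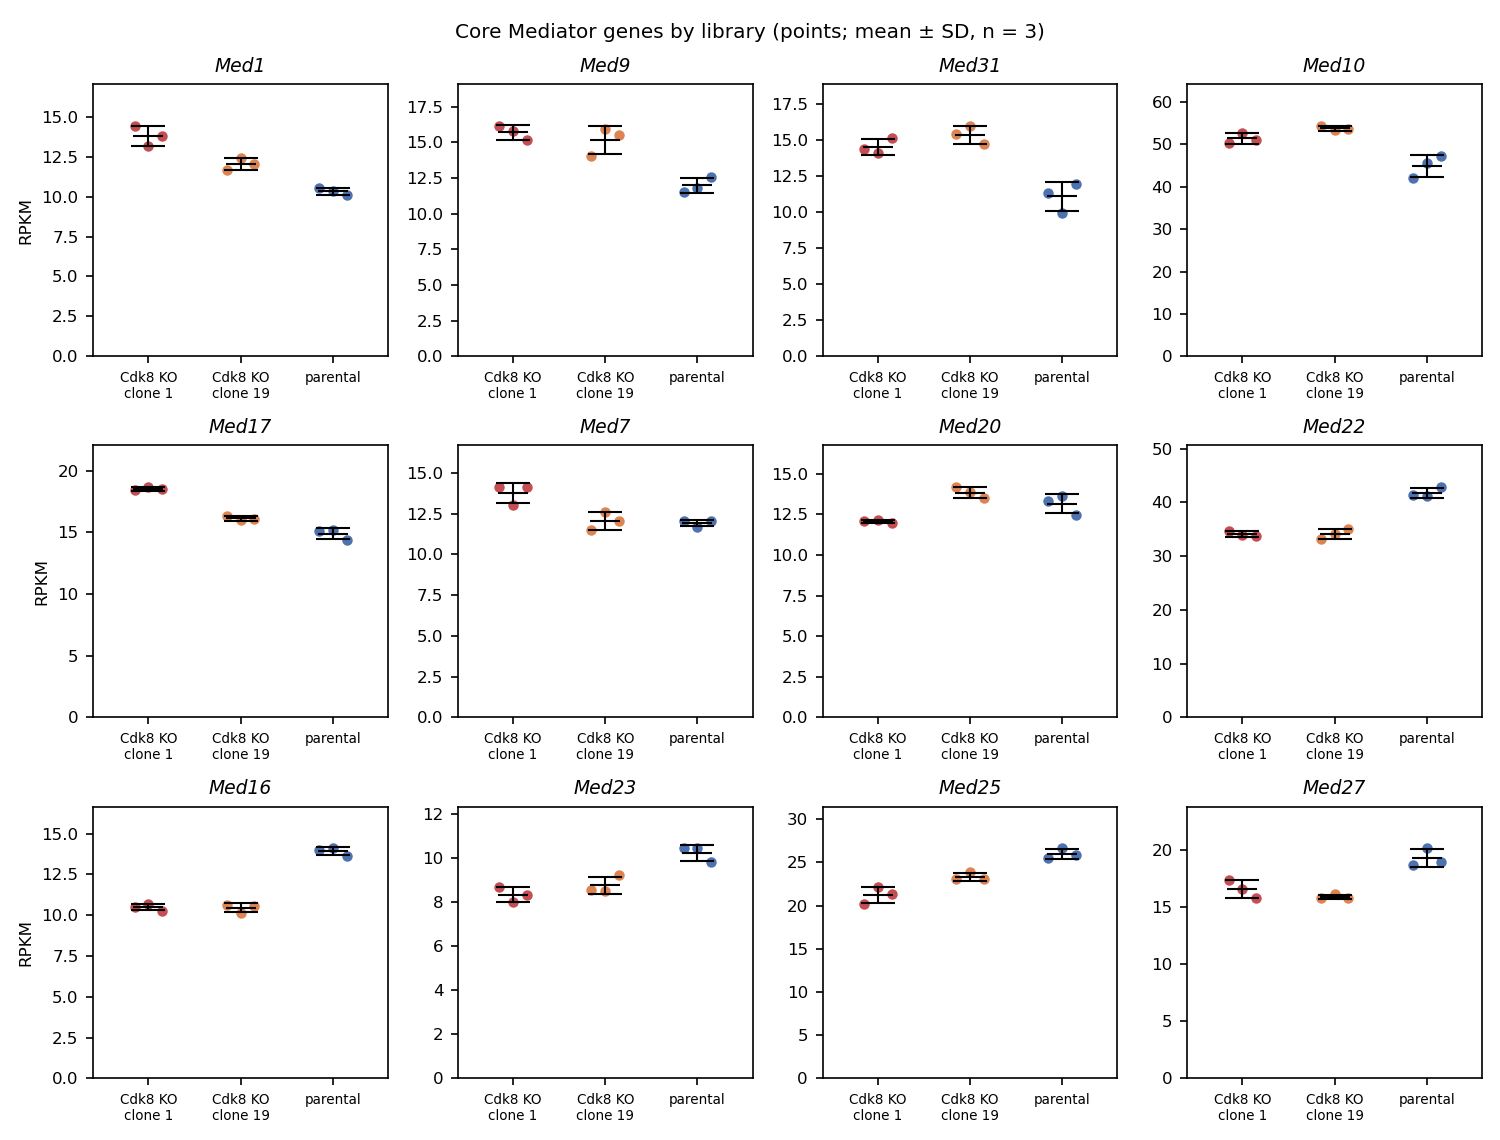
RPKM (y axis, from 0) of 12 core Mediator genes in the 3 libraries of clone 1, clone 19 and parental cells. Points are libraries and bars are the mean ± SD (n = 3). Med1, Med9, Med31, Med10 and Med17 are higher and Med22, Med16, Med23, Med25 and Med27 lower in both clones, while Med7 and Med20 stand apart in clone 1.

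The promoters of 4 genes that mark the ends of these ranges are shown, as the 250 bases before the RefSeq start of each gene (GRCm38.p6, 5′ to 3′ on the gene's strand). Cdk8 and Ccnc fell together, Med31 had the largest rise in clone 19 and Med16 the largest fall of the core in both clones. They lie at chr5:146231000-146231249 (plus strand), chr4:21727451-21727700 (plus), chr11:72215593-72215842 (minus) and chr10:79908939-79909188 (minus). Capitals mark matches on either strand to CCGGAA (ETS factors), CCAAT (the CCAAT box), GGGCGG (the GC box) and TATAAA (the TATA box).
Cdk8: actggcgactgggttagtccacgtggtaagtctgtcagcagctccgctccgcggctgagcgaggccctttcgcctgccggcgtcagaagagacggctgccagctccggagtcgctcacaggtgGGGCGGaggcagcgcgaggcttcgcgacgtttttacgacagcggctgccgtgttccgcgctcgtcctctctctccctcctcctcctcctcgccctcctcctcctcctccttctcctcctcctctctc
Ccnc: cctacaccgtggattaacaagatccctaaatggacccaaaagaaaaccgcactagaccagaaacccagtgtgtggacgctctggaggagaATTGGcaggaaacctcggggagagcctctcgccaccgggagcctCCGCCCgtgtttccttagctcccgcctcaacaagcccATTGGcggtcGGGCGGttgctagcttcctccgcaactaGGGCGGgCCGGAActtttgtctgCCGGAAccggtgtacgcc
Med31: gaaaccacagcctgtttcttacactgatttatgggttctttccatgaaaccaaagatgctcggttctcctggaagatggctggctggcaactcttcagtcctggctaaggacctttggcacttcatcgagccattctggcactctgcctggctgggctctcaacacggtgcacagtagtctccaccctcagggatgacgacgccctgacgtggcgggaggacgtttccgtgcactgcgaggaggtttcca
Med16: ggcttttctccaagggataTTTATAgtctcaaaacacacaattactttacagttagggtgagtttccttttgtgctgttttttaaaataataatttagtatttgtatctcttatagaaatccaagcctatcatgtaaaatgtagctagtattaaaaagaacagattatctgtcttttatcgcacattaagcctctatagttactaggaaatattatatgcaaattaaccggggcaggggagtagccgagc
Cdk8 holds 1 GC box, and Ccnc holds 2 ETS matches, 2 CCAAT boxes and 3 GC boxes, so these 2 windows have the GC box in common. Med31 holds none of the motifs, and Med16 holds a TATA box match in a window of 33.2% GC, the lowest of the Mediator genes. That match is on the opposite strand, near the end of the window farthest from the start. RefSeq promoters were found for 28 of the 33 genes. A GC box was present in 64.3% of them, against 61.9% of the 9002 tested genes with a promoter and 32.9% of all 27025 promoters. ETS matches were present in 25.0%, against 24.2% and 12.2%, CCAAT boxes in 39.3%, against 37.1% and 34.5%, and TATA boxes in 10.7%, against 5.95% and 12.97%. A match is a run of letters, counted at any position and on either strand, and not a measured binding site. For each gene the first listed RefSeq start was used.

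Several of the Mediator genes that fell lie among genes that were lower too. For each Mediator gene the 50 nearest tested genes in RefSeq gene order were taken, and their median change is given beside it. Over all tested genes, 32.6% were called lower and 39.8% higher in clone 1, and 32.3% and 36.7% in clone 19. Around Med16, 46 of the 50 were called lower in clone 1 and 45 in clone 19, with medians of -0.39 and -0.36, close to the -0.39 and -0.40 of Med16 itself. Around Med22 the count of lower genes was 41 and 42, around Med27 38 and 37, around Med23 38 and 36, and around Med19 35 and 33. Med22 and Med27 are each other's neighbours among these 50. With the neighbours' median subtracted in each library, Med16 was at -0.01 and -0.02 (adjusted p = 0.843 and 0.653, limma), Med22 at 0.03 and 0.03, and Med23 at 0.00 and 0.09, and none of these passed. Med27 was then at 0.10 in clone 1, where it was called higher (adjusted p = 0.033, limma), and at 0.02 in clone 19. Med19 was called higher in both (0.14 and 0.16, adjusted p = 0.0040 and 0.0022, limma). Med25 kept its fall against its neighbours (-0.16 and -0.10, adjusted p = 0.0018 and 0.021, limma), and Med24 was lower in both (-0.23 and -0.10, adjusted p = 2.7e-05 and 0.0085, limma). The tail then had 1 gene higher and 2 lower in clone 1, and 0 higher and 2 lower in clone 19.

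Of the core genes given per library that rose, Med9 had the most shifted neighbours. Around Med9, 38 of 50 neighbours were called higher in clone 1 and 36 in clone 19, with medians of 0.28 and 0.19. With these subtracted Med9 was at 0.11 in clone 1, which did not pass, and 0.13 in clone 19 (adjusted p = 0.075 and 0.047, limma). Med1 stayed at 0.36 and 0.20, Med31 at 0.26 and 0.37, Med17 at 0.25 and 0.18 and Med10 at 0.10 and 0.19, all called higher in both clones. Med14, Med30 and Med6 kept 1 call fewer each, in clone 1 for Med14 and Med30 and in clone 19 for Med6. In the kinase module Cdk8 stayed lower (-0.60 and -0.67, adjusted p = 1.7e-07 and 8.0e-08, limma) and Ccnc too (-0.25 and -0.10, adjusted p = 6.6e-05 and 0.022, limma). Cdk19 has 50 neighbours of which 35 were called lower in clone 1 and 37 in clone 19, and was higher than they were (0.29 and 0.46, adjusted p = 1.6e-04 and 4.4e-06, limma). Around Med13, 30 and 40 of 50 were called lower, and with their median subtracted Med13 was at 0.03 and 0.06. Med12 had 27 of 50 neighbours called higher in each clone, where 39.8% and 36.7% of all tested genes were. It was lower than its neighbours (-0.24 and -0.17, adjusted p = 0.0035 and 0.021, limma). Over all 32 genes this setting gave 13 higher and 5 lower in clone 1, and 12 higher and 5 lower in clone 19. Over all tested genes it gave 33.6% higher and 32.7% lower in clone 1, and 32.0% and 31.3% in clone 19.

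**Figure D5:**
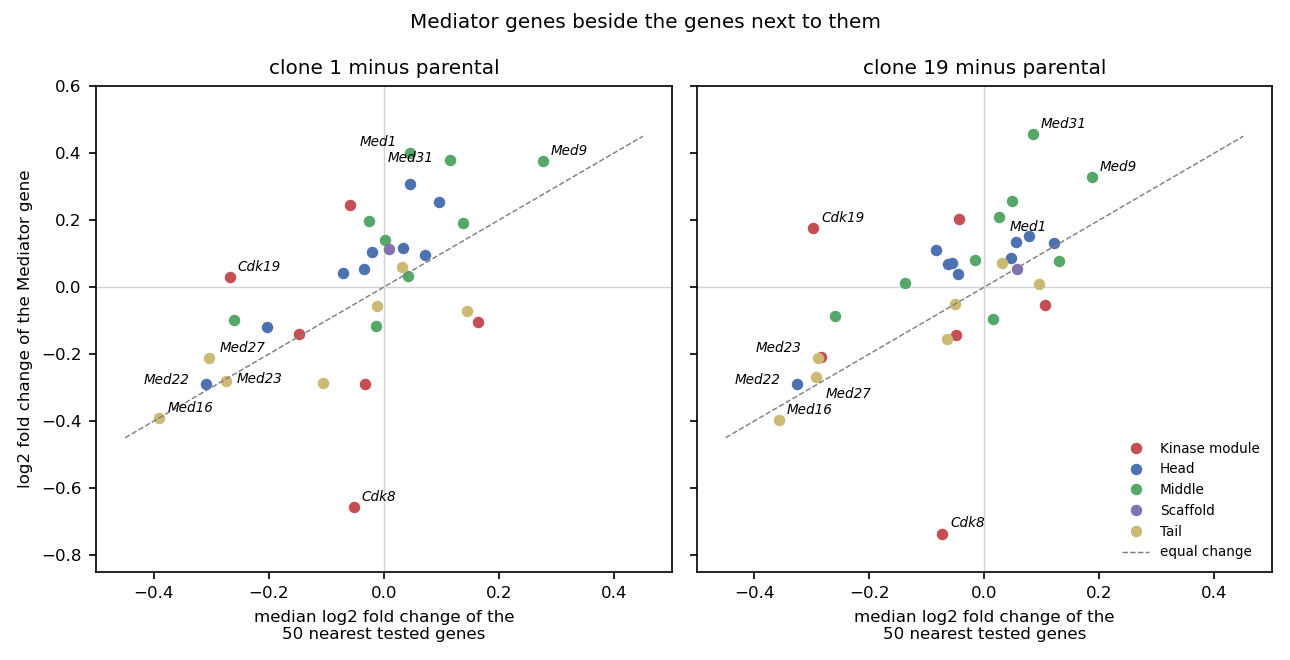
Log2 fold change of each tested Mediator gene (y axis) against the median log2 fold change of its 50 nearest tested genes (x axis), for clone 1 minus parental (left) and clone 19 minus parental (right), coloured by module. On the dashed line a gene changed as its neighbours did. Med16, Med22, Med23 and Med27 lie near that line at the lower left, Cdk8 far below it and Cdk19 far above it.

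Set against each other, the clones differed in Med17, Med1 and Med7, lower in clone 19, and in Med20, Ccnc, Cdk19, Med25 and Med24, higher in clone 19. In clone 19 minus clone 1, 5 Mediator genes were higher and 3 lower, which is 25.0% of those tested against 43.0% of all 12568 tested genes (18.5% higher and 24.5% lower). No Mediator gene was called with a ratio of 5 to 4 or more, where 7.97% of all tested genes were called at that size. Ranges did not overlap for 6 genes that were higher and 3 that were lower in clone 19, against 22.3% and 29.2% of all tested genes. Without clone 19 replicate 3 the count of higher genes was 3, since Cdk19 and Med24 lost their calls.

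Med17 was lower in clone 19 than in clone 1 (-0.19 ± 0.03, SE, adjusted p = 3.4e-04, limma), but with its neighbours subtracted the difference was -0.06 (adjusted p = 0.118). Med1 was lower too (-0.19 ± 0.04, SE, adjusted p = 0.0027, limma). Both were higher than in parental cells in both clones. Med7 had 11.5, 12.6 and 12.1 RPKM in clone 19, against 14.1, 13.04 and 14.1 RPKM in clone 1, beside 12.0, 11.7 and 12.1 RPKM in parental cells. Clone 19 overlapped parental cells and lay below clone 1 (-0.19 ± 0.04, SE, adjusted p = 0.0048, limma). A noncoding gene on the other strand, 2310031A07Rik, covers 21.2% of the 2871 exon bases of Med7 in GENCODE M21. The gene model behind these RPKM has 2574 bases. Med20 went the other way, with 14.2, 13.9 and 13.5 RPKM in clone 19, against 12.1, 12.2 and 12.0 RPKM in clone 1, beside 13.3, 13.7 and 12.5 RPKM in parental cells. Clone 1 was the low group and clone 19 overlapped parental cells (0.19 ± 0.04, SE, adjusted p = 0.0019, limma). Of the 50 genes around Med20, 35 were also called higher in clone 19 than in clone 1, where 18.5% of all tested genes were. With these neighbours subtracted the difference of Med20 was 0.03 (adjusted p = 0.53, limma). The pseudogene Kpna2-ps covers 21.4% of the 7324 exon bases of Med20 in GENCODE M21, where the gene model behind these RPKM has 2040 bases.

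Med25 was higher in clone 19 than in clone 1 (0.13 ± 0.03, SE, adjusted p = 0.0094, limma), as described with the tail, and with its neighbours subtracted the difference was 0.06 (adjusted p = 0.25). Med24 had 21.3, 22.2 and 22.4 RPKM in clone 19, against 21.1, 20.7 and 20.5 RPKM in clone 1, beside 22.1, 21.7 and 21.8 RPKM in parental cells. The clones did not overlap, but the difference was small (0.08 ± 0.03, SE, adjusted p = 0.033, limma). It ended without clone 1 replicate 2 or 3 or clone 19 replicate 2 or 3 (adjusted p = 0.0707, 0.0942, 0.0849 and 0.109), and with only the compared groups fitted (adjusted p = 0.0655). Med16 and Med22 were at nearly equal levels in the clones, with differences of -0.01 and 0.00 on the log2 scale (SE 0.03 each).

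Other parts of the transcription machinery were counted in the same fit, in which 39.8% of all tested genes were called higher and 32.6% lower in clone 1, and 36.7% and 32.3% in clone 19. Among 13 RNA polymerase II subunit genes, clone 1 had 5 higher and 4 lower and clone 19 had 3 higher and 4 lower, which is 69.2% and 53.8% called against 72.4% and 69.0% of all tested genes. Polr2e, a subunit shared by all 3 nuclear polymerases, averaged 75.8 ± 2.24 RPKM in clone 1 and 77.2 ± 2.92 RPKM in clone 19, against 98.5 ± 0.550 RPKM in parental cells (SD, n = 3 each). It fell by 0.38 and 0.35 on the log2 scale (adjusted p = 5.3e-07 and 1.1e-06, limma), as did its neighbours, whose medians were -0.40 and -0.38. Polr2g rose to 90.7 RPKM in clone 1 and 96.7 RPKM in clone 19, against 74.2 RPKM in parental cells (0.29 and 0.38, adjusted p = 1.6e-07 and 2.0e-08, limma). Polr2d averaged 54.9, 48.4 and 41.2 RPKM in clone 1, clone 19 and parental cells (0.41 and 0.23, adjusted p = 4.2e-07 and 5.7e-05, limma).

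Among 18 general transcription factor genes, clone 1 had 7 higher and 5 lower and clone 19 had 4 higher and 4 lower (66.7% and 44.4% called, against 72.4% and 69.0% of all tested genes). Scaling by the reads on genes gave 4 higher and 8 lower in clone 1 and 3 higher and 6 lower in clone 19. Gtf2b, which encodes TFIIB and positions the polymerase at the start site, rose to 56.8 ± 1.90 RPKM in clone 1 and 55.9 ± 1.52 RPKM in clone 19, against 35.1 ± 0.725 RPKM in parental cells (SD, n = 3 each). The change was 0.69 and 0.66 (adjusted p = 5.1e-09 and 7.5e-09, limma), and 0.39 in both clones with neighbouring genes subtracted. Gtf2h4, a TFIIH subunit, fell (-0.49 and -0.26, adjusted p = 7.5e-06 and 0.0011, limma), but with neighbouring genes subtracted it was at -0.08 and -0.10 and was not called (adjusted p = 0.155 and 0.102). Gtf2a1, of TFIIA, fell as well (-0.28 and -0.20, adjusted p = 3.4e-04 and 0.0037, limma).

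Among the pause release and elongation genes, 22 of 23 were tested, with 6 higher and 11 lower in clone 1 and 7 higher and 12 lower in clone 19. That is 77.3% and 86.4% called, beside 72.4% and 69.0% of all tested genes. The list median was -0.12 and -0.11, against 0.03 and 0.02 over all tested genes. Aff4 and Ell2 belong to the super elongation complex, the partner of MED26. Aff4 rose to 50.8 ± 4.404 RPKM in clone 1 and 42.3 ± 1.46 RPKM in clone 19, against 27.1 ± 0.956 RPKM in parental cells (0.89 and 0.64, adjusted p = 6.6e-08 and 1.2e-06, limma). With neighbouring genes subtracted, whose medians were 0.46 and 0.35, it was at 0.44 and 0.29 and still called. Ell2 rose to 7.18 RPKM in clone 1 and 6.01 RPKM in clone 19, against 4.60 RPKM in parental cells (0.59 and 0.35, adjusted p = 1.5e-06 and 1.2e-04, limma). Mllt3, another partner in that complex, fell to 1.33 RPKM in clone 1 and 1.15 RPKM in clone 19, against 2.40 RPKM in parental cells (-0.67 and -0.81, adjusted p = 8.6e-05 and 2.1e-05, limma).

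All 10 genes of cohesin and its loader, which join with Mediator at looped enhancers and promoters, were called in clone 1, 7 higher and 3 lower. In clone 19, 3 were higher, 3 lower and 4 did not pass. Over all tested genes 72.4% were called in clone 1 and 69.0% in clone 19. Scaling by the reads on genes left 3 higher and 3 lower in clone 1. Rad21 rose to 204 RPKM in clone 1 and 192 RPKM in clone 19, against 174 RPKM in parental cells (0.23 and 0.14, adjusted p = 1.6e-06 and 9.0e-05, limma). Smc3 rose in both clones (0.12 and 0.26, with limma adjusted p = 0.0035 and 1.6e-05), but not in clone 1 with scaling by the reads on genes (0.05, adjusted p = 0.16). Pds5b fell in both (-0.19 and -0.21, adjusted p = 0.0028 and 0.0016, limma).

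MED13 is known to be marked for breakdown by the ubiquitin ligase made of FBXW7, SKP1 and CUL1. All 3 genes rose in clone 1, and Skp1 and Fbxw7 rose in clone 19, where 39.8% and 36.7% of all tested genes were called higher. With neighbouring genes subtracted, 1 of the 3 was called higher in each clone, and Cul1 was called lower in clone 19 (-0.10, adjusted p = 0.0033). Skp1 rose to 132 ± 2.97 RPKM in clone 1 and 120.0 ± 1.10 RPKM in clone 19, against 86.8 ± 1.19 RPKM in parental cells (0.60 and 0.47, adjusted p = 8.9e-10 and 6.8e-09, limma). Its neighbours had medians of 0.44 and 0.31, and with them subtracted Skp1 was at 0.16 in both clones (adjusted p = 1.3e-04 and 2.1e-04). Fbxw7, the subunit that binds the substrate, had 5.63, 5.39 and 5.61 RPKM in clone 1 libraries and 5.15, 5.09 and 4.85 RPKM in clone 19 libraries, against 4.27, 4.32 and 4.43 RPKM in parental cells. All clone libraries lay above the parental ones (0.32 and 0.19, adjusted p = 3.7e-05 and 0.0018, limma). Its 50 neighbours had medians of 0.29 and 0.29, and with them subtracted it was at 0.03 and -0.10 and passed in neither clone. Cul1 was called higher in clone 1 alone (0.12, adjusted p = 3.9e-04, limma), but not with scaling by the reads on genes (0.04, adjusted p = 0.092). Clone 19 minus clone 1 passed for all 3 genes (-0.10 to -0.14), except for Fbxw7 with that scaling (-0.11, adjusted p = 0.058).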

How the data were processed

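RNA of 9 YAMC libraries was sequenced, 3 each of Cdk8 knockout clone 1, clone 19 and parental cells. The values the authors deposited are RPKM (reads per kilobase and megaread) of 28059 Entrez gene IDs. Per the labels' protocols, total RNA was column-purified and a TruSeq RNA kit gave the libraries. The submitters' processing notes name GSNAP, DESeq and the build NCBIM37. For tool versions, annotation, counting rule and strand, nothing was given in the sources used here. Gene names and neighbours came from RefSeq (GRCm38.p6), which named 24998 IDs, and exon overlaps from GENCODE M21. No file coordinate is printed.

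Each RPKM was traced to whole reads: low genes gave the worth of 1 read in each library, and the scale at which gene lengths became whole gave the depth. All 20289 genes with values in at least 2 libraries came out whole, and 99.97% of 12810 lengths lay within 0.05 of a whole number. Each library thus has 1 divisor, of 23.2 to 44.2 megareads, which is called its depth here. A size factor inside that divisor would leave reads and lengths whole, so this check cannot tell whether one was applied. The counting error, set by the recovered reads, was 7.74% or less of a value for the tested Mediator genes.

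Genes with at least 1 RPKM in at least 3 of 9 libraries were tested, 12568 in all, with limma 3.58.1 (R 4.3.3) on log2(RPKM + 0.5), in 1 model of 3 group means with a mean-variance trend. Fold changes are on this scale, which understates those of low genes. P-values were adjusted by Benjamini-Hochberg within a contrast and called under 0.05. They measure the spread between libraries. The labels do not say whether replicates were separate cultures. The fit was tested on simulated data.

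Every Mediator gene is named. By rule, values per library are given for the kinase module, for the 4 core genes with the largest called change in each direction in each clone, and for 3 in each direction between clones. Up to 3 genes are named per machinery list, those with the largest mean change among genes called in both clones. Fbxw7 is given per library, and Cul1 and the 2 genes that lost their calls are named, after their values were seen. Mediator genes and lists were chosen with earlier results of these data known. The placing of genes in modules is part of these lists. Alternatives were the pseudocounts 0.1 and 1, a filter at 3 RPKM or none, median-ratio scaling, no trend, array weights, a block on replicate number, fits of the compared groups only, subtraction of what the 50 nearest tested genes did in each library (their median deviation), each library left out, and a ratio of at least 5 to 4. Scaling by reads on genes and voom on the recovered reads were added after seeing the data.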

Additional observations from a re-analysis of the deposited data

Results flagged for a closer look

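The clones' changes against the same parental libraries differed, by the test of clone 19 minus clone 1 (log2 scale, limma), for 8 of the 32 tested Mediator genes, or 25.0% against 43.0% of all tested genes. The difference was 0.15 for Cdk19 (adjusted p = 0.015) and 0.15 for Ccnc (adjusted p = 0.0048). It was -0.19 for Med1 (adjusted p = 0.0027), -0.19 for Med7 (adjusted p = 0.0048) and -0.19 for Med17 (adjusted p = 3.4e-04). It was 0.19 for Med20 (adjusted p = 0.0019), 0.079 for Med24 (adjusted p = 0.033) and 0.13 for Med25 (adjusted p = 0.0094). Cdk19 lost this call without clone 19 replicate 3 (adjusted p = 0.057) and Med24 without any 1 of 4 clone libraries (adjusted p = 0.0707 to 0.109) and with only the compared groups fitted (adjusted p = 0.0655). With neighbouring genes subtracted, Med17 (-0.06), Med20 (0.03) and Med25 (0.06) were not called.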

How the results depend on the processing

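With neighbouring genes subtracted, 5 Mediator genes were called lower in clone 1 and 5 in clone 19, and 5 were called between the clones, 3 of them higher. Over all tested genes 32.7% were then called lower in clone 1 and 31.3% in clone 19. Between the clones 16.4% were called higher and 16.7% lower. Under that setting these changed direction: in clone 1 Med19 (0.14), Med20 (0.11), Med22 (0.026), Med23 (0.0032) and Med27 (0.10), and in clone 19 Med13 (0.063), Med19 (0.16), Med22 (0.029), Med23 (0.090), Med24 (-0.10) and Med27 (0.022). With a ratio of 5 to 4 required as well, 5 were called in clone 1 (3 higher, 2 lower), 4 in clone 19 (2 higher, 2 lower) and 0 between the clones (0 higher, 0 lower). Leaving out 1 library gave 17 to 23 calls in clone 1 (9 to 12 higher, 8 to 12 lower). It gave 16 to 19 in clone 19 (8 to 10 higher, 7 to 9 lower) and 6 to 9 between the clones (3 to 5 higher, 3 to 4 lower). Over all tested genes it gave 37.5 to 40.0% higher and 30.4 to 32.5% lower in clone 1. The shares were 34.2 to 37.1% and 29.8 to 32.7% in clone 19, and 15.5 to 17.9% and 19.8 to 23.5% between the clones. On voom, 12 were higher and 14 lower in clone 1, 9 and 9 in clone 19, and 5 and 3 between the clones. Of the called genes, 10 of 22 in clone 1, 10 of 18 in clone 19 and 3 of 8 between the clones were called in the same direction in every setting but the ratio threshold. The cause of the other changes was not tested.

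The replicate numbers of the labels were not used as a pairing in the main fit. Same-numbered libraries correlated at -0.04 to 0.12 in their deviations from the group means, and libraries of different numbers at -0.14 to 0.08. With 3 libraries per group these values do not settle whether the numbers mark pairs. In clone 1 each library correlated best with the parental one of its own number, which is a hint from the data and not the design. With the replicate block, 12 Mediator genes were higher and 10 lower in clone 1, 9 and 9 in clone 19, and 4 and 3 between the clones. Over all tested genes the block gave 39.7% higher and 32.2% lower in clone 1, and 36.4% and 31.8% in clone 19. Between the clones the block gave 17.8% and 23.3%. Under it Med24 was not called in clone 1 (adjusted p = 0.0537) or between the clones (adjusted p = 0.0589), and Med26 was called lower in clone 1 (adjusted p = 0.0353), while no other Mediator call changed.

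Med12l had at most 3 reads per library, too few for a fold change.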
